A study of Codonopsis pilosula with 12 samples.

Results

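SAG21, LEA18 and GMPM1 are genes of *Codonopsis pilosula* whose best database hits are late embryogenesis abundant (LEA) proteins. They were chosen by their gene IDs in the assembled transcriptome, TRINITY_DN14809_c1_g6 for SAG21, TRINITY_DN16504_c0_g2 for LEA18 and TRINITY_DN5430_c0_g1 for GMPM1, and are 3 of 55270 genes. The study compared leaves of 2 cultivars of this medicinal plant, the local variety Weidang No. 1 (W1) and the newer Gandang No. 1 (G1), to learn how their seedlings answer drought. Potted seedlings 4 weeks after emergence were sampled when watering stopped (day 0, control groups CW1 and CG1) or after 4 days without water (day 4, drought groups DW1 and DG1), with 3 RNA-seq libraries in each of the 4 groups and 12 in all. No well-watered plants of day 4 were sequenced, so drought and the 4 days between the samplings cannot be told apart. The field that describes the treatment of CW1 replicate 1 names drought, whereas its title and the paper put it among the controls, and it was analysed as a control. The sources differ on whether a library holds 1 pot or a mix of 2 pots, so n = 3 counts libraries and the p-values measure the spread between these libraries, part of which may be technical.

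LEA proteins are small, very hydrophilic proteins that accumulate in maturing seeds and in leaves or roots that lose water, and they are thought to keep membranes and other proteins intact while cells dry. Many LEA genes are switched on by the hormone abscisic acid (ABA), which rises in leaves under drought. In Arabidopsis, SAG21 is also known as AtLEA5, belongs to the LEA_3 family, reaches mitochondria and was first described as a senescence-associated gene. LEA18 of Arabidopsis and GMPM1, a seed maturation protein of soybean, belong to the LEA_1 family, also called group 4, and are best known from seeds and from vegetative tissue under water deficit.

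The names rest on matches to other species. The SAG21 gene was 802 bp long with 2 assembled transcripts, carried the LEA_3 domain, and matched LEA protein 3L-1 of *Camellia sinensis*. The LEA18 gene was 702 bp long with 2 transcripts and matched an LEA protein 18-like of sunflower, with no SwissProt name and no domain in the annotation. The GMPM1 gene was 591 bp long with 1 transcript, carried the LEA_1 domain, and matched the soybean 18 kDa seed maturation protein and an LEA protein 46-like of cardoon. No genome position is given, because the genes were assembled without a reference genome.

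The libraries held 12415203 to 22837612 rounded counts. The leaf label was checked with 32 genes for light-harvesting proteins and the Rubisco small subunit. In 11 libraries all 32 were above 0, with summed levels of 69686 to 136662 TPM (a level scaled to transcript length and library size). The leaf markers differed between groups in the fits, which include DG1 replicate 1. In G1, drought against control, 3 of 32 had a log2 change above 0 (median -0.88, 1 called lower), beside 25 of 32 in W1 (median 0.30). Between DG1 and DW1 0 of 32 were above 0 (median -0.99) and edgeR called none, with 5 at an unadjusted p under 0.05 and 2 called by DESeq2. DG1 replicates 2 and 3 summed to 100722 and 78458 TPM, within the CG1 range of 69686 to 136662 TPM. Replicate 3 was below the DW1 range of 89381 to 130743 TPM. These leaf contrasts are not given without DG1 replicate 1, which stood apart. Its 32 leaf markers summed to 14400 TPM with 2 of the 32 at 0. In this library 1806 genes with a vertebrate SwissProt hit and no hit in the non-redundant protein database made up 2.49% of the TPM, compared with 0.141% to 0.246% in the other libraries. The drought results of SAG21, LEA18 and GMPM1 in G1 are therefore given also without this library. Of the other marker lists, 15 seed storage protein and oleosin genes summed to 104 to 188 TPM in the control libraries and 89.8 to 280 TPM in the drought libraries. In each library 1 to 4 of the 15 were at 0. The 280 TPM was DW1 replicate 1, beside 93.4 and 96.3 TPM in DW1 replicates 2 and 3. The 9 root markers summed to 0.29 to 88.7 TPM, highest in CG1 replicate 1. The part of these differences in the results was not tested. In leaf RNA of this kind, fewer cells of a type and less RNA per cell cannot be told apart.

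SAG21 was one of the most abundant transcripts of these leaves. In CW1 its level was 148, 191 and 223 TPM in replicates 1, 2 and 3, and in CG1 it was 315, 744 and 632 TPM. After drought it was 572, 1213 and 762 TPM in DW1 and 1681, 869 and 1504 TPM in DG1. Every drought library lay above every control library of the same cultivar, and the 3 CW1 libraries were lower than the other 9. By rank of TPM among all 55270 genes, SAG21 was 870th, 688th and 507th in CW1 and 153rd, 75th and 118th in DW1. In CG1 it was 393rd, 129th and 152nd, and in DG1 35th, 98th and 61st. The group means were 187 ± 37.7 in CW1, 563 ± 222 in CG1, 849 ± 329 in DW1 and 1351 ± 427 TPM in DG1 (SD, n = 3). In this order of means the ranges of CG1 and DW1 overlapped, as did those of DW1 and DG1, while CW1 and CG1 did not.

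LEA18 was scarce in watered leaves, from 2 counts in CW1 replicate 1 to 26 in CG1 replicate 1, and reached high levels in some drought libraries. In CW1 it was 0.21, 0.72 and 1.02 TPM in replicates 1, 2 and 3, and in CG1 2.44, 1.59 and 0.43 TPM. In DW1 it was 4.06, 51.4 and 0.30 TPM, so the libraries of 1 group differed 171-fold and replicate 3 stayed within the range of the controls. In DG1 it was 307, 44.4 and 122 TPM, which put all 3 DG1 libraries above all 6 controls, and 2 of them above every other library. The means were 0.650 ± 0.410 in CW1, 1.49 ± 1.01 in CG1, 18.6 ± 28.5 in DW1 and 158 ± 135 TPM in DG1 (SD, n = 3). Each neighbouring pair of groups in this order had overlapping ranges, with DW1 replicate 2 (51.4 TPM) inside the range of DG1, whereas DG1 did not overlap with either control group.

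GMPM1 was the least abundant of the 3. It was listed at 0 in replicates 1 and 3 of both control groups, and replicate 2 held 0.18 TPM in CW1 and 0.10 TPM in CG1, which were 2 counts and 1 count. A count of 0 allows up to 3 counts, or 0.158 to 0.174 CPM (counts scaled to library size) in the 4 libraries at 0. In DW1 it was 0.58, 1.60 and 0.25 TPM (6, 10 and 2 counts), and in DG1 3.46, 1.48 and 2.90 TPM (27, 13 and 28 counts). By TPM all 6 drought libraries lay above all 6 controls, but DW1 replicate 3 (2 counts, 0.132 CPM) was below what a count of 0 allows and held as many counts as CW1 replicate 2, so its separation from the controls was not detectable at this depth. The means were 0.810 ± 0.704 TPM in DW1 and 2.61 ± 1.02 TPM in DG1 (SD, n = 3), with overlapping ranges because DW1 replicate 2 was above DG1 replicate 2.

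**Figure D1:**
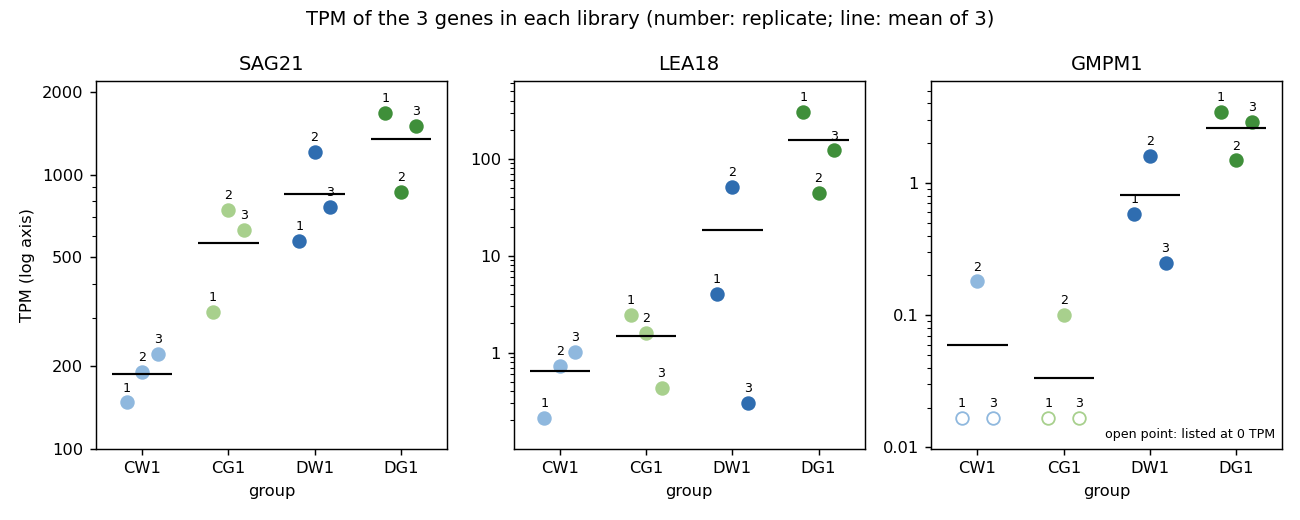
TPM of SAG21, LEA18 and GMPM1 on log axes in the 4 groups, 1 point per library numbered by replicate, with a line at the mean of 3. DW1 replicate 3 holds LEA18 at the level of the controls (0.30 TPM), whereas SAG21 in the same library (762 TPM) is above all CW1 libraries, and the open points of GMPM1 are libraries listed at 0.

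Before the tests, genes with low counts were removed, which kept 29168 genes, and the 3 passed that filter in different ways. The filter asked for about 0.565 CPM in at least 3 libraries. SAG21 was over it in all 12 libraries and LEA18 in 7, namely 2 of CG1, 2 of DW1 and 3 of DG1. GMPM1 was over it in 4 libraries, 1 of DW1 and 3 of DG1, so it could be tested only because DG1 was high. For this reason no count or median over the 3 genes is given as a result. All tests below are edgeR quasi-likelihood tests with Benjamini-Hochberg adjustment over the 29168 genes, and a gene was called at an adjusted p under 0.05.

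In G1, LEA18 rose in drought leaves, GMPM1 was called from few counts, and SAG21 did not pass the test. The comparison of DG1 with CG1 called 23.8% of all genes tested, 11.5% as higher, and in 16.4% every DG1 library lay above every CG1 library, as it did for each of these 3. LEA18 rose 109-fold (log2 change 6.77 ± 1.52 SE, adjusted p = 0.0109 by edgeR). Without DG1 replicate 1 the log2 change of LEA18 was 5.88 (adjusted p = 0.0278), and without DG1 replicate 2 it was 7.20 (adjusted p = 0.0147). GMPM1 had a fitted log2 change of 5.71 ± 1.18 (adjusted p = 0.00765), a call made on the group that let it pass the filter. With no low-count filter its log2 change was 5.65 (adjusted p = 0.0133). Because CG1 held 1 count of GMPM1 in all, that value depends on the small count edgeR adds, and the ratio of the 68 DG1 counts to this 1 count per unit of depth was 71.7 (95% exact interval 12.4 to 2872, counting error only). The fitted log2 value of GMPM1 was 5.49 (adjusted p = 0.0233) without DG1 replicate 1 and 7.60 (adjusted p = 0.0213) without CG1 replicate 2, the library with that count. SAG21 was 2.32-fold higher in DG1 (log2 1.21 ± 0.45, 95% interval 0.22 to 2.21, adjusted p = 0.0745). Without DG1 replicate 1 its log2 change was 1.05 (adjusted p = 0.176). DESeq2 (log2 1.21, adjusted p = 0.0322) and limma on log2(TPM + 1) (1.30, adjusted p = 0.0470) passed SAG21 in G1.

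In W1, SAG21 rose in drought leaves, and LEA18 and GMPM1 did not pass the test. The comparison of DW1 with CW1 called 1.57% of all genes, 0.771% as higher, and in 11.3% every DW1 library lay above every CW1 library, as for SAG21 and, by TPM only, GMPM1. SAG21 rose 4.92-fold (log2 2.30 ± 0.47, adjusted p = 0.0426 by edgeR). The call was kept without CG1 replicate 1, DW1 replicate 1 or DG1 replicate 1. It was lost without any of the other 9 libraries, with log2 changes of 1.93 to 2.47 and adjusted p of 0.0533 to 0.209, and in a fit on CW1 and DW1 alone (2.31, adjusted p = 0.0811), which called 1 gene of the whole table. Without CW1 replicate 1, the library with the conflicting label, the log2 change of SAG21 was 2.16 (adjusted p = 0.142). LEA18 had a log2 change of 5.00 ± 1.51 (adjusted p = 0.10), which was 1.87 (adjusted p = 0.418) without DW1 replicate 2. DESeq2 called LEA18 (5.05, adjusted p = 0.00138), and limma on log2(TPM + 1) gave 2.12 (adjusted p = 0.315). GMPM1 had a log2 change of 3.39 ± 1.11 (adjusted p = 0.121), and its 18 counts in DW1 against 2 in CW1 gave a ratio of 11 per unit of depth (95% exact interval 2.63 to 97.5).

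Averaged over both cultivars, SAG21 and LEA18 rose in drought leaves. GMPM1 was also called higher, a call that rests in part on DG1, the group that let it pass the filter. This contrast called 29.3% of all genes, 14% as higher. The log2 change was 1.76 ± 0.32 for SAG21 (adjusted p = 0.00304 by edgeR), a 3.38-fold change. It was 5.88 ± 1.07 for LEA18 (adjusted p = 0.00275) and 4.55 ± 0.81 for GMPM1 (adjusted p = 0.00254). Each of these calls was kept in every alternative run and without any single library, but the sizes for LEA18 and GMPM1 depended on the scale. With limma on log2(TPM + 1) and log2(TPM + 0.1) the averaged change was 3.90 and 4.62 for LEA18, and 1.24 and 3.37 for GMPM1. Without DG1 replicate 1 the log2 changes were 1.67 for SAG21, 5.44 for LEA18 and 4.44 for GMPM1. The log2 change of LEA18 was 4.31 without DW1 replicate 2, and that of GMPM1 was 5.50 without CG1 replicate 2 and 5.73 without CW1 replicate 2, the libraries with its control counts.

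Between the cultivars none of the 3 genes passed the test. Among control leaves 0.442% of all genes were called, and in 6.16% every CG1 library lay above every CW1 library. SAG21 was among the latter, 3.49-fold higher in CG1 (log2 1.80 ± 0.46, 95% interval 0.79 to 2.82, adjusted p = 0.112 by edgeR). CG1 replicate 1 was the lowest CG1 library for SAG21, and without it the log2 difference was 2.15 (adjusted p = 0.0115), while the count of all genes called in this comparison went from 129 to 1190. DESeq2 also called SAG21 here (1.83, adjusted p = 0.00368). For LEA18 the log2 difference of CG1 and CW1 was 1.36 ± 1.56 (95% interval -2.07 to 4.79), and GMPM1 had too few counts in control leaves for a direction, which turned when CW1 replicate 2 was left out.

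Under drought the 3 genes had higher means in G1 than in W1, but the libraries overlapped for each of them. This comparison called 0.00686% of all genes, and in 7.14% the DG1 libraries all lay above the DW1 libraries. The log2 difference of DG1 and DW1 was 0.72 for SAG21 (95% interval -0.27 to 1.71, adjusted p = 0.464 by edgeR). It was 3.13 for LEA18 (95% interval 0.37 to 5.89, adjusted p = 0.265) and 1.77 for GMPM1 (95% interval -0.14 to 3.68, adjusted p = 0.347). In each case 8 of the 9 pairs of a DG1 and a DW1 library had the higher value in DG1, and DW1 replicate 2 was the library that crossed. Without it the log2 difference was 6.25 for LEA18 (adjusted p = 0.139), 1.08 for SAG21 (0.344) and 2.69 for GMPM1 (0.293). Without DG1 replicate 1 it was 2.25 for LEA18 (adjusted p = 0.524), 0.56 for SAG21 (0.694) and 1.54 for GMPM1 (0.595).

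The difference between the cultivars in their drought effect was tested as an interaction, which called 0.0137% of all genes and none of these 3. For SAG21 the G1 effect less the W1 effect was -1.09 on the log2 scale (95% interval -2.48 to 0.31, adjusted p = 0.609 by edgeR). It was 1.77 for LEA18 (95% interval -2.66 to 6.20, adjusted p = 0.816) and 2.32 for GMPM1 (95% interval -1.80 to 6.44, adjusted p = 0.718). Leaving out 1 library moved the interaction of LEA18 from 0.89 (without DG1 replicate 1) to 4.89 (without DW1 replicate 2), with adjusted p of 0.938 and 0.466. That SAG21 was called in W1, and LEA18 and GMPM1 in G1, is therefore not a difference between cultivars that passed a test, and the intervals are too wide to show that the cultivars respond alike.

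**Figure D2:**
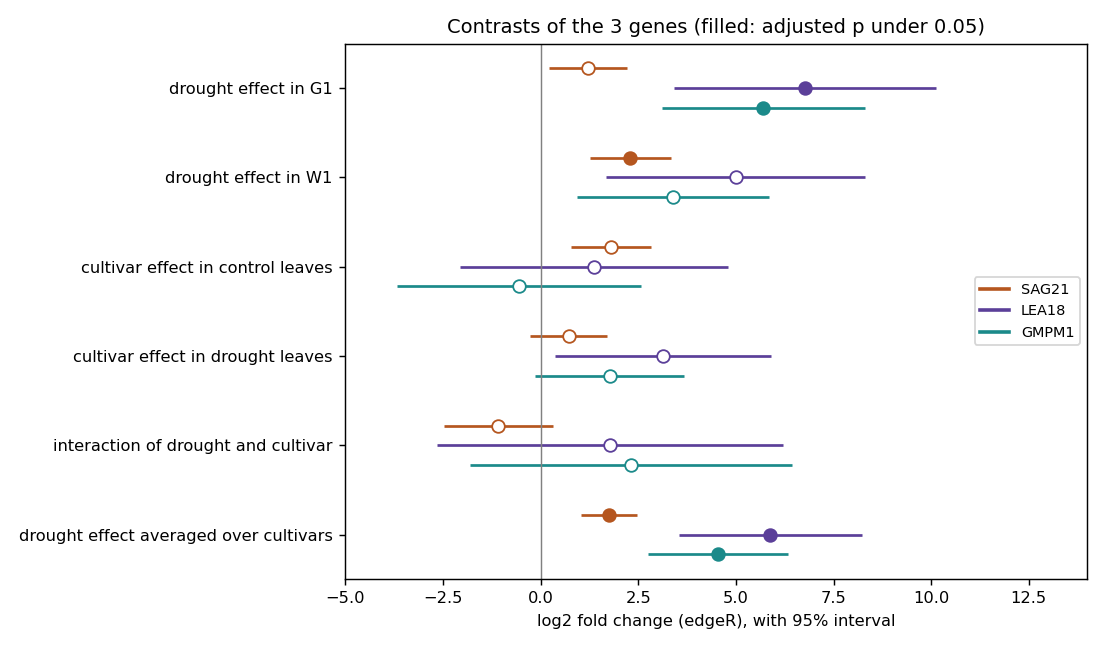
Log2 fold changes of SAG21, LEA18 and GMPM1 with 95% intervals in the 6 contrasts, filled where the adjusted p was under 0.05. The averaged drought effect, which called 29.3% of all genes, is filled for SAG21 (1.76) and LEA18 (5.88). It is also filled for GMPM1 (4.55), which could be tested only because DG1 was high. No cultivar contrast or interaction is filled.

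The levels of the 3 genes were correlated over the libraries, but their order of libraries was not the same within every group. Over the 12 libraries, which share the difference between drought and control, Pearson r of log2(TPM + 1) was 0.974 for LEA18 with GMPM1, 0.797 for SAG21 with GMPM1 and 0.773 for SAG21 with LEA18. Spearman rho was 0.790, 0.833 and 0.748 in the same order. For all 3 genes DG1 replicate 1 was highest, and over the 11 libraries without it r was 0.960, 0.748 and 0.716 in the same order. The balance between them varied widely, since SAG21 had 5.48 to 19.6 times the TPM of LEA18 in DG1, 23.6 to 2539 times in DW1 and 129 to 1469 times in the controls.

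SAG21 supplied most of the LEA transcripts outside the LEA_2 family. By annotation words, 71 genes were LEA genes, of which 40 belonged to the LEA_2 family, a large group that also holds NDR1/HIN1-like defence proteins, and 11 carried the word only in an orthology field. The other 20, with the 3 genes described here, summed to 221 ± 41.1 TPM in CW1, 599 ± 212 in CG1, 971 ± 314 in DW1 and 1612 ± 547 TPM in DG1 (SD, n = 3). SAG21 alone made up 72.2% to 97.1% of this sum across the libraries. Of the sum over all 71 genes it made up 18.3% to 33.9% in the control libraries and 30.8% to 65.1% in the drought libraries. LEA18 and GMPM1 together with SAG21 made up 93.1% ± 4.16 of the sum over the 20 genes in DG1 (SD, n = 3). The remaining 17 genes summed to 33.0 ± 3.12 TPM in CW1, 33.9 ± 15.2 in CG1, 102 ± 100 in DW1 and 100.8 ± 40.0 in DG1.

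**Figure D3:**
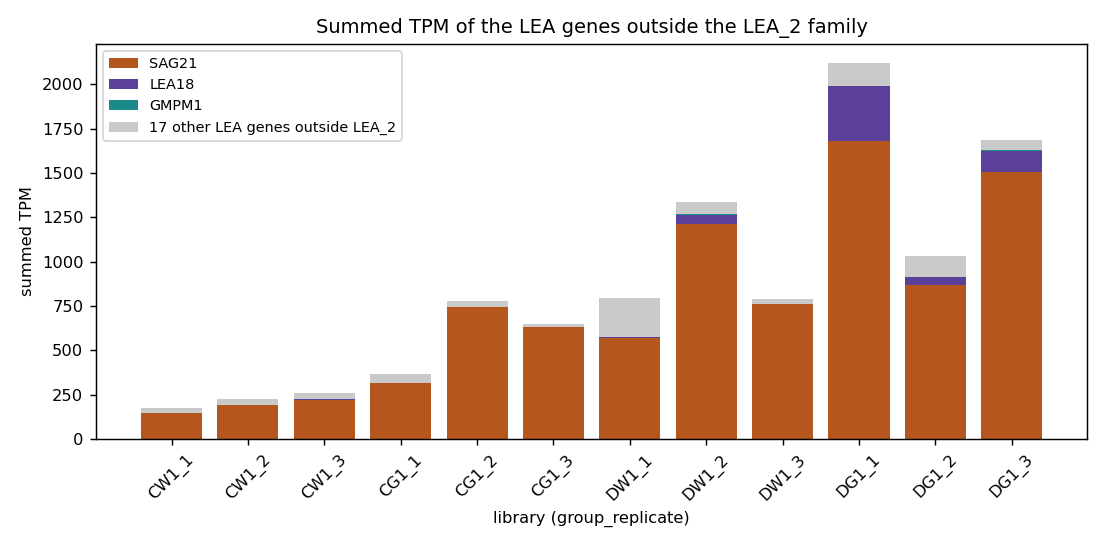
Summed TPM of the 20 LEA genes outside LEA_2 in each library, split into SAG21, LEA18, GMPM1 and the 17 others. SAG21 is the largest block in each bar, LEA18 is visible mainly in DG1 and in DW1 replicate 2, and DW1 replicate 1 has the largest share of the 17 others (216 TPM).

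Of the 71 LEA genes 57 could be tested. The averaged drought contrast called 14% of all genes as higher and 15.3% as lower. Of the 57 LEA genes 14 rose and 10 fell in it, with a median log2 change of 0.09, beside 0.02 for all genes tested. Of the 36 tested LEA_2 genes 4 rose and 7 fell. Of the 20 genes outside LEA_2, 15 were tested, and 10 of these rose and 1 fell. Scarce genes among them, such as GMPM1 and DC-8, were near 0 in control leaves and entered the test through the drought libraries, so this count is a description and the families were not compared by a test. The 10 became 6 without CG1 replicate 3 and 7 without DG1 replicate 1. In G1 alone, with 11.5% of all genes called higher and 12.3% lower, 8 of the 57 rose and 10 fell. In W1, with 0.771% called higher and 0.799% lower, 2 rose and 1 fell.

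The most abundant LEA genes after SAG21 were mostly LEA_2 genes that did not follow it. An NDR1/HIN1-like gene (DN12958_c1_g6, best hit YLS9) had means of 25.6, 275, 59.4 and 155 TPM in CW1, CG1, DW1 and DG1, with an averaged log2 change of 0.19 (adjusted p = 0.845 by edgeR). Means of 86.5, 77.6, 111 and 102 TPM were found for NHL12 (DN19201_c0_g4; 0.42, adjusted p = 0.128). A homolog of the desiccation protectant Lea14 (DN19658_c0_g3) had 20.7, 61.4, 85.2 and 91.6 TPM (1.11, adjusted p = 0.122). Like SAG21, these LEA14 means were lowest in CW1 and highest in DG1, although the change did not pass the test.

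Of the other abundant LEA_2 genes, 2 fell in the averaged contrast. The NDR1/HIN1-like gene DN15465_c1_g1 and the unnamed DN15138_c1_g2 both fell, with averaged log2 changes of -1.31 and -1.84 (adjusted p = 0.0110 and 0.00547 by edgeR). In W1 alone their log2 changes were -0.45 and -0.33 (adjusted p = 0.603 and 0.769), beside -2.17 and -3.35 in G1 (adjusted p = 0.00829 and 0.00363). DN19933_c1_g2, also NDR1/HIN1-like, had 21.0, 129, 28.5 and 31 TPM in CW1, CG1, DW1 and DG1 (averaged log2 change -0.80, adjusted p = 0.148). DN21120_c0_g1, DN21034_c0_g9 and DN13000_c0_g1 had averaged changes of -0.20, -0.40 and -0.58, and none of them passed. DN14285_c1_g3, which the orthology field lists with LEA and whose best hit is an aspartokinase, had 0.25 (adjusted p = 0.435).

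**Figure D4:**
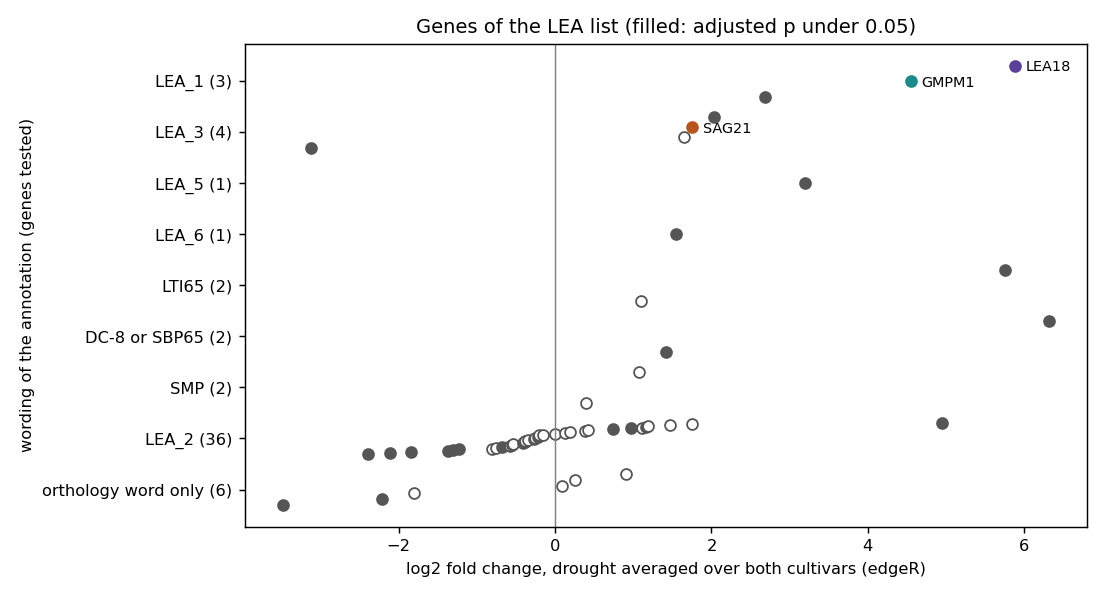
Averaged drought effect (log2 fold change) of the 57 tested LEA genes by the wording of their annotation (LEA18 by its name alone), filled where the adjusted p was under 0.05. LEA18 (5.88) and GMPM1 (4.55) lie at the right end with DC-8 (6.32), LTI65 (5.75) and the LEA_2 gene DN14479_c1_g5 (4.94). The other LEA_2 genes lie on both sides of 0.

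Several LEA genes of low level in control leaves also rose, but were highest in another library than LEA18. They are named here after their values were seen. The homolog of DC-8, an embryonic LEA protein of carrot (DN14535_c0_g4), was 0 to 0.93 TPM in the controls, 32.0, 5.69 and 0.74 TPM in DW1 and 1.92, 2.83 and 3.98 TPM in DG1. Its averaged log2 change was 6.32 ± 0.97 (adjusted p = 0.00134 by edgeR). A homolog of LTI65, an ABA-responsive gene of Arabidopsis (DN21103_c0_g2), was 12.7, 5.56 and 0 TPM in DW1 and 0.64, 2.10 and 4.39 TPM in DG1 (5.75 ± 1.28, adjusted p = 0.00747). An LEA_2 gene, the LEA14-like DN14479_c1_g5, also rose, by 4.94 ± 0.96 (adjusted p = 0.00390). This gene was called in neither cultivar alone (3.21 in G1, adjusted p = 0.0938, and 6.68 in W1, adjusted p = 0.0504, by edgeR). It was 0.69 to 2.17 TPM in the controls, 214, 91.6 and 0.28 TPM in DW1 and 9.39, 9.39 and 11.9 TPM in DG1. Thus DW1 replicate 1 was highest for DC-8, LTI65 and DN14479_c1_g5, whereas for SAG21, LEA18 and GMPM1 the highest was DG1 replicate 1. DW1 replicate 3 was the lowest drought library for DC-8, LTI65, DN14479_c1_g5, LEA18 and GMPM1. Without DW1 replicate 1 the averaged change was 5.43 for DC-8 and 5.27 for LTI65, both still called (adjusted p = 0.00114 and 0.0130). No such value is given for DN14479_c1_g5.

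The closest relatives of the 3 genes, also named after their values were seen, were mixed. Another gene with the best hit GMPM1 (DN19369_c1_g2, an 11 kDa LEA protein) held 131 TPM in DW1 replicate 1 and 0.51 to 30.1 TPM in the other drought libraries. Its averaged log2 change of 2.68 (adjusted p = 0.0432 by edgeR) was 1.47 (adjusted p = 0.150) without DW1 replicate 1 and 2.67 (adjusted p = 0.0647) without DG1 replicate 1. Of the LEA_3 genes beside SAG21, LEA5 (DN12945_c2_g6) rose (log2 change 2.03 ± 0.48, adjusted p = 0.00992) and DN12281_c0_g1 fell by 3.12 ± 0.64 (adjusted p = 0.00492). Both were scarce, with 0.34 to 9.80 TPM and 0 to 5.46 TPM. Related genes of an assembly can share reads, so the split of counts between such copies is uncertain.

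The assembly groups genes that share reads by the DN number, and the neighbours of the 3 genes there were checked. SAG21 shared its number with 7 genes, including CIPK1, a kinase of calcium signalling (26.5, 19.1, 30.4 and 26.2 TPM in CW1, CG1, DW1 and DG1), and CRSH, a chloroplast GTP diphosphokinase that rose by 1.35 on the log2 scale in the averaged contrast. LEA18 shared its number with 6, including NAC086, a transcription factor that rose by 2.94 on the log2 scale, the nuclease CAN1 and a clathrin light chain gene (0.34 and -0.13). None of these neighbours has an LEA hit. GMPM1 was the only gene of its number.

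The genes whose levels over the 12 libraries were most like those of the 3 were sought among 20143 annotated genes, as a description without a test. All share the difference between drought and control. For SAG21 they were NAC072 (r = 0.956), an ABA- and drought-responsive transcription factor in Arabidopsis, a homolog of the translation factor SUI1 (0.952), the transporter DTX14 (0.950) and PP2CA (0.945), a phosphatase that holds back ABA signalling. NAC072 spanned 6.53 to 9.04 TPM in CW1 and 10.8 to 36.0 TPM in CG1 before drought. It spanned 27.2 to 211 TPM in DW1 and 93.4 to 257 TPM afterwards in DG1. Like SAG21 it was higher in CG1 than in CW1 in every library.

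For LEA18 the most alike was ATHB-7 (DN20532_c1_g3, r = 0.962), a homeodomain factor that ABA and water deficit induce in Arabidopsis. It was at most 0.84 TPM in the controls, 8.99, 19.0 and 1.29 TPM in DW1 and 111, 29.8 and 36.1 TPM in DG1, with DW1 replicate 3 the lowest and DG1 replicate 1 the highest of the drought libraries, as for LEA18. Next came an uncharacterized gene (DN13270_c0_g3, r = 0.950), the receptor-like kinase CRK25 (0.950) and the methylesterase MES17 (0.949). For GMPM1 they were LEA18 itself (0.974), ATHB-7 (0.971), HPD (0.968), an enzyme of tyrosine breakdown and vitamin E synthesis, and STAY-GREEN (0.965), which acts in chlorophyll breakdown. In DW1 replicate 3, where LEA18 was at the control level, PP2CA was 78.9 TPM against 20.6 to 22.6 TPM in CW1.

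**Figure D5:**
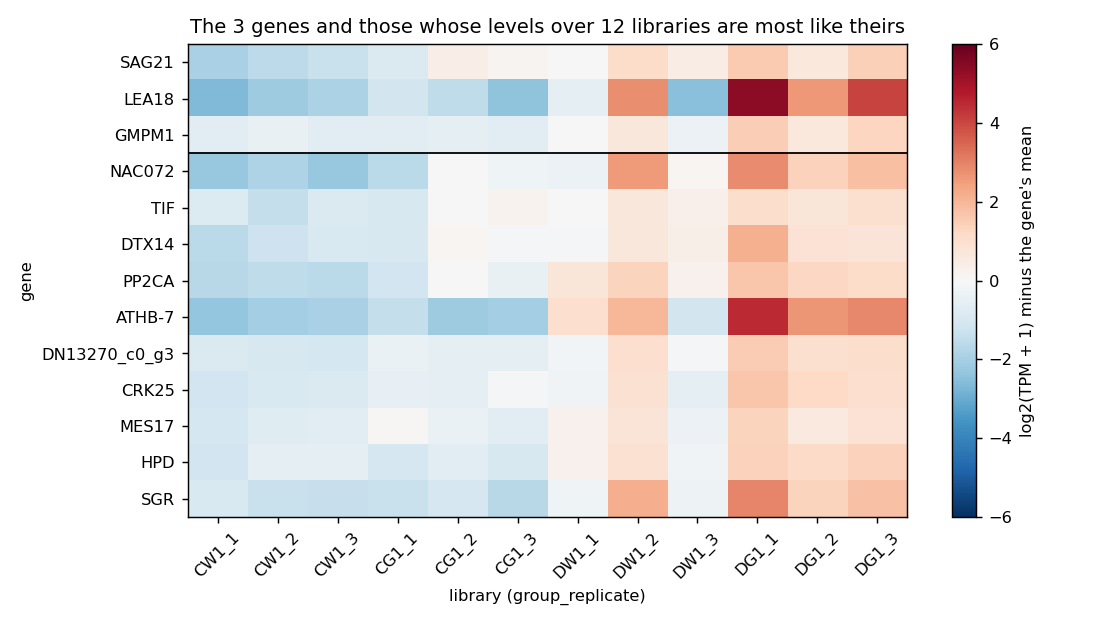
Level of SAG21, LEA18 and GMPM1 (above the line) and of the genes most like them (below) in each of the 12 libraries, as log2(TPM + 1) minus the mean of the gene. DG1 replicate 1 is the reddest column, and DW1 replicate 3 is blue for LEA18 (0.30 TPM) and ATHB-7 (1.29 TPM) but not for SAG21 (762 TPM) or PP2CA (78.9 TPM).

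Genes of the ABA pathway, through which LEA genes are known to be induced, were counted in the same contrast. The list of 56 genes held ABA receptors, phosphatases, kinases, transcription factors, and genes of synthesis and breakdown. It also held genes with XERICO and HVA22 hits, which are outside these classes. Of the 56 genes 48 were tested, and 18 rose and 6 fell in the averaged contrast (median log2 change 0.47, all genes 0.02). The shares of all genes were 14% higher and 15.3% lower. In G1 alone 17 rose and 4 fell (all genes 11.5% and 12.3%), and in W1 7 rose and 1 fell (all genes 0.771% and 0.799%). XERICO (DN20014_c0_g1), which raises ABA levels in Arabidopsis, had risen by a log2 change of 3.06 ± 0.18 (adjusted p = 6.18e-05 by edgeR), and the phosphatase gene At2g29380 (DN14062_c0_g4) by 3.79 ± 0.27. The receptor PYL9 (DN15855_c0_g2) rose by 1.53 ± 0.24 and PP2CA by 2.21 ± 0.28. The receptors PYL8 (DN15855_c0_g3) and PYL1 (DN16538_c1_g1) fell by 0.61 ± 0.15 and 1.04 ± 0.28, and HVA22I and another HVA22-like gene (DN18311_c0_g7) by 0.63 ± 0.16 and 0.73 ± 0.16. In W1 alone PYL9 and PYL8 changed by 0.79 and -0.19 (adjusted p = 0.212 and 0.645 by edgeR). In G1 they changed by 2.28 and -1.03 (adjusted p = 0.00248 and 0.00662), and neither interaction was called (0.410 and 0.432). PYL1, HVA22I and DN18311_c0_g7 were called in neither cultivar alone.

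Other genes of desiccation and seeds were counted beside the LEA genes. Of 47 genes for oleosins, caleosins, raffinose sugars and small heat shock proteins, 40 were tested, and 17 rose and 5 fell in the averaged contrast (median log2 change 0.99). The shares of all genes were 14% higher and 15.3% lower. In G1 alone 13 rose and 2 fell (all genes 11.5% and 12.3%). In W1 0 rose and 0 fell by edgeR (all genes 0.771% and 0.799%), where 14 were higher and 5 lower at an unadjusted p under 0.05 and DESeq2 called 8 and 3. A class I small heat shock protein (DN16624_c0_g3) rose by 2.87 ± 0.42 (adjusted p = 0.00107 by edgeR), HSP18.5-C by 1.53 ± 0.34, galactinol synthase GOLS1 by 1.33 ± 0.40 and a raffinose synthase gene of the RFS2 hit (DN18174_c1_g3) by 1.83 ± 0.38. A gene whose best hits name both RFS1 and a cyclic nucleotide-binding protein (DN16759_c0_g4) fell by 3.68 ± 0.56, and HSP17.4B (DN20130_c0_g8) by 1.5 ± 0.28. SOP1 (DN16118_c1_g2) fell by 2.58 ± 0.72, and another RFS2 gene (DN16789_c1_g2) by 0.42 ± 0.13. In G1 alone edgeR did not call GOLS1, SOP1 or DN16789_c1_g2 (adjusted p = 0.174, 0.157 and 0.110). For GOLS1, DG1 replicate 1 (172 TPM) was below every control library (216 to 337 TPM).

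SAG21 carries senescence in its name, and a list of 13 senescence genes that holds it was compared. Of the 11 tested, 6 rose, SAG21 among them, and 0 fell in the averaged contrast by edgeR (all genes 14% and 15.3%), with a median log2 change of 0.68. The counts were the same by DESeq2 and at an unadjusted p under 0.05. In G1 alone 3 rose and 1 fell (all genes 11.5% and 12.3%), and in W1 edgeR called SAG21 alone as higher (all genes 0.771%). At an unadjusted p under 0.05 by edgeR, 7 of the 11 were higher and 0 lower in W1, and DESeq2 called 5 and 0. Beside SAG21 the most abundant that rose were DIN1, a dark-inducible gene (1.67 ± 0.37), and NYC1, which acts in chlorophyll b breakdown (0.68 ± 0.20). The less abundant STAY-GREEN (DN14798_c1_g2), also of this list, rose further, by 3.27 (adjusted p = 0.00146 by edgeR). SAG101 was called on counts (0.47 ± 0.11), but its mean TPM was 34.9 in CW1 and 36.3 in DW1, and 28.3 in CG1 and 28.1 in DG1, so its TPM did not show the rise. Their changes on the log2 scale were smaller than those of LEA18 and GMPM1, and SAG21 had the highest level of the list.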

How the data were processed

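RNA from leaves of 12 samples was sequenced. Trinity was used by the authors for the assembly, of 55270 genes, and RSEM for the level of each gene. The deposited table gives an RSEM expected count and a TPM value, both made by the authors, for each gene and library, with gene length and database hits. The labels also list a mouse genome build, although the paper describes an assembly of plant reads, and name other RNA kits than the paper. Whether counting used strand is not given in the sources used here. Intervals of counts cover counting error only.

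Expected counts were rounded. Genes were filtered by filterByExpr by group, which left 29168 genes. The quasi-likelihood test of edgeR 4.0.16, run in R 4.3.3 after TMM scaling, was fitted with 1 mean per group over 12 libraries, 8 residual degrees of freedom and a common dispersion of 0.217. Intervals of log2 changes use the t distribution with 10.9 degrees of freedom. Adjusted p-values are Benjamini-Hochberg over all genes tested. Scripts were tested on simulated data. Alternatives were DESeq2 1.42.0, limma 3.58.1 on log2(TPM + 1) and log2(TPM + 0.1), RLE factors, no low-count filter, only the groups compared, the replicate number as a block, library sizes without vertebrate hits, and each library left out.

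The text names the 3 genes, the 12 tested LEA genes with the highest mean TPM, up to 4 genes per direction called in the averaged contrast of the ABA, desiccation and seed, and senescence lists by highest mean TPM, genes sharing a DN number, and the 4 annotated genes of mean TPM of 1 or more with the highest Pearson r. Other genes are named as chosen after their values were seen. The genes and lists were chosen with earlier results of these data known. Lists were built from annotation words, and genes caught by an unrelated use of a word, or with a vertebrate best hit, were taken out after the table had been seen.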

Additional observations from a re-analysis of the deposited data

How the results depend on the processing

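Of 351 values of SAG21, LEA18 and GMPM1 under the alternatives, 333 kept their direction and their side of the threshold. SAG21 in G1 was called by DESeq2 (log2 1.21), limma on log2(TPM + 1) (1.30) and limma on log2(TPM + 0.1) (1.30), SAG21 between control groups by DESeq2 (1.83), and LEA18 in W1 by DESeq2 (5.05). SAG21 in W1 lost its call when only CW1 and DW1 were fitted (2.31). Leaving out 1 library gave log2 values of SAG21 of 1.93 to 2.55 in W1 and 1.44 to 2.15 between control groups. For GMPM1 it gave -2.45 to 1.86 between control groups and -0.11 to 4.21 for the interaction, and without CW1 replicate 2 both turned sign, to 1.86 and -0.11. LEA18 in W1 and GMPM1 in W1 and between control groups gave no value when only the groups compared were fitted, since they failed the low-count filter there.

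The number of genes called in W1 (458) was 3233 with DESeq2, 240 with no low-count filter, 1 with only the groups compared, and 270 and 163 with limma on log2(TPM + 1) and log2(TPM + 0.1). Between control groups the 129 became 1416, 18, 259 and 213 with DESeq2, only those groups and both limma fits. Between drought groups the 2 became 1407 with DESeq2, 1 with RLE factors, 6 with no filter, 84 and 70 with limma, and 0 with only those groups by edgeR, where 2892 of 25503 genes had an unadjusted p under 0.05. The 4 interaction calls became 351 with DESeq2 and 11 with limma on log2(TPM + 1). Leaving out 1 library gave 3914 to 7121 genes in G1, 0 to 1862 in W1, 3 to 1190 between control groups, 0 to 32 between drought groups, 0 to 308 for the interaction and 5931 to 8819 in the average. The 0 in W1 was the edgeR fit without CW1 replicate 2, where 3919 genes had an unadjusted p under 0.05. The 0 between drought groups came without CG1 replicate 2 (4834 such genes) or DG1 replicate 3 (3982), and for the interaction 6 such fits had 2137 to 3376. Of the 4 genes most like each, ranking by Spearman rho kept 2 for SAG21, 0 for LEA18 and 1 for GMPM1.

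The replicate numbers did not pair the libraries. Libraries of the same number had deviations from their group means correlated by -0.177 to 0.27 over 18 pairs, and 3 of these were over 0.1. With the replicate number as a block, no call of SAG21, LEA18 or GMPM1 changed. The log2 values under the block were 1.38, 2.25 and 1.82 for SAG21 in G1, W1 and the average, 7.20, 4.23 and 5.71 for LEA18, and 6.09, 3.45 and 4.77 for GMPM1. The block gave 23 calls between control groups and 0 for the interaction by edgeR, where 2538 genes had an unadjusted p under 0.05.

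GMPM1 held 3 counts in the 6 control libraries together, and LEA18 differed 171-fold within DW1, which limits what these libraries can show of both.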
